A study of Homo sapiens with 6 samples.

Results

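In RNA-seq of HEC-1-A cells, 9 genes of the transforming growth factor beta (TGF-β) pathway were examined, chosen by symbol from the 23228 genes of the deposited tables: the ligands TGFB1 and TGFB2, the receptors TGFBR1, TGFBR2 and TGFBR3, the signal transducer SMAD3, and the inhibitors SMAD7, SKIL and BAMBI. HEC-1-A is an established human endometrial adenocarcinoma line. The 6 libraries came from cells in McCoy's 5A medium with fetal bovine serum, 3 without the compound (control) and 3 with SMIP34, a small-molecule inhibitor of the nuclear protein PELP1, at 20 µM for 24 h. The study's methods state that controls received vehicle, and nothing in the labels says whether the replicates came from separate cultures, so the p-values measure the spread between these libraries. In bulk RNA, fewer cells that express a gene and less RNA per cell cannot be told apart. Serum is itself a source of TGF-β, and the line is a single cancer line without stroma.

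TGF-β ligands are secreted in a latent form and, once released, bind the type II receptor TGFBR2, which phosphorylates the type I receptor TGFBR1. The activated type I receptor phosphorylates SMAD2 and SMAD3, which join SMAD4 and enter the nucleus to switch genes on or off. Among the genes that the pathway commonly induces are its own inhibitors, SMAD7 and SKIL, which limit the signal. In epithelial cells, endometrial epithelium included, TGF-β is known as a brake on proliferation and, in carcinomas, as a driver of invasive behaviour.

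After 24 h with SMIP34, mRNA of the inhibitors SKIL and SMAD7, of the co-receptor TGFBR3, of SMAD3 and of TGFBR1 rose, and mRNA of TGFBR2 fell. The increases were between 12.2% and 25.9%, and TGFBR2 fell by 7.96%. TGFB1 and BAMBI did not pass the test, and TGFB2 had too few counts to be tested. Of the 9 genes, 8 passed the filter on low counts, and 5 of them were higher and 1 was lower when called by edgeR's quasi-likelihood test at a Benjamini-Hochberg adjusted p-value below 0.05. The same rule called 34.6% of all 13408 genes tested, 17.4% higher and 17.2% lower. With the fold limit of the study's methods added, an absolute log2 fold change over 0.5, 3.31% of all genes tested passed in edgeR and 0 of the 8 did. The count of the 8 was also 0 at an unadjusted p-value under 0.05 and with DESeq2.

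The libraries held between 19562711 and 22014835 counts. Levels are given as CPM, the counts of a gene relative to the scaled library total, and fold changes as log2 of SMIP34 over control. Replicates of a group differed by more than counting noise (chi-square per gene between 1.91 and 3.26), and libraries of different groups differed more (8.77 to 13.2). The mRNA of PELP1, the protein that SMIP34 targets, was 0.16 ± 0.035 (SE) higher on the log2 scale (edgeR adjusted p = 0.000746). The 7 epithelial markers examined (EPCAM, CDH1, KRT8, KRT18, KRT19, MUC1 and PAX8) were all expressed, with a summed level between 3058 and 3321 CPM in a library. Of these, 4 (KRT8, KRT19, MUC1 and PAX8) were called lower with SMIP34, beside 17.2% of all genes tested. Their log2 fold changes were -0.12, -0.17, -0.32 and -0.070. The 501 genes nearest in exon length to each had medians of -0.059, -0.074, -0.057 and 0.035. Markers of other cell types were near 0, with sums between 3.63 and 5.18 CPM for 6 stromal genes, of which LUM had no count, up to 0.501 CPM for 5 leukocyte genes, of which CD3E had no count, and up to 0.876 CPM for 4 endothelial genes. COL1A1 was the one stromal marker called higher, and the part of these marker changes in the results was not tested.

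The 9 genes spanned a wide range of mRNA levels. Per kilobase of annotated exon, SMAD3 was the most abundant, with a control mean of 52.5 CPM per kb (range 51.6 to 53.5 over 3 libraries). TGFBR2 followed at 25.4 CPM per kb (24.5 to 26.7) and TGFBR1 at 11.2 CPM per kb (11.1 to 11.3). SMAD7 stood at 10.1 CPM per kb (9.51 to 10.9) and SKIL at 8.79 CPM per kb (8.44 to 9.35), so that the type I receptor and both inhibitors lay close together. TGFB1, at 2.46 CPM per kb (2.11 to 2.73), and TGFBR3, at 2.45 CPM per kb (2.38 to 2.59), overlapped in control cells. BAMBI was at 0.365 CPM per kb and TGFB2 at 0.0481 CPM per kb. With SMIP34 the order of means changed at a single place, between TGFB1 (2.42 CPM per kb, 2.25 to 2.71) and TGFBR3 (3.04 CPM per kb, 2.96 to 3.17), whose ranges no longer overlapped. TGFBR1 and SMAD7, at 12.6 CPM per kb (12.2 to 13.1) and 12.4 CPM per kb (11.7 to 13.3), overlapped in treated cells and not in control cells.

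**Figure D1:**
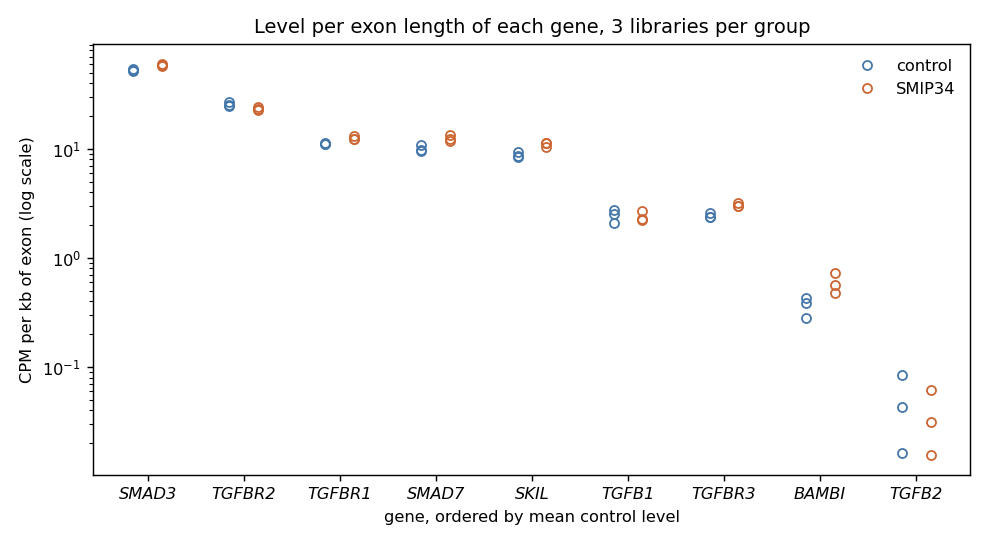
Level of each of the 9 genes per kilobase of annotated exon (CPM per kb, log scale), with 1 point for each of the 3 control and 3 SMIP34 libraries and genes ordered by control mean. SMAD3 is the highest at 52.5 CPM per kb in control and TGFB2 the lowest at 0.0481 CPM per kb.

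Of the ligands, TGFB1 (chromosome 19 of hg19, 41836812 to 41859831, minus strand) encodes the prototype TGF-β. Its counts were 90, 122 and 125 in control replicates 1, 2 and 3 and 131, 107 and 109 in SMIP34 replicates 1, 2 and 3, or 4.64, 5.61 and 6.01 CPM against 5.97, 4.95 and 5.04 CPM. The groups overlapped, and the control libraries alone spanned the treated ones. The log2 fold change was -0.032 (95% confidence interval -0.31 to 0.25, edgeR adjusted p = 0.885), and no difference was detectable within that interval at this depth.

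TGFB2 (chromosome 1, 218518676 to 218617961, plus strand) encodes a second TGF-β isoform, which depends on the co-receptor TGFBR3 for strong binding to TGFBR2. It had 5, 11 and 2 counts in control replicates 1, 2 and 3 and 8, 2 and 4 counts in SMIP34 replicates 1, 2 and 3, below the filter on low counts. The groups overlapped. TGFB3, the remaining isoform of the ligand family, averaged 0.419 CPM in the controls against 0.537 CPM with the compound (log2 fold change 0.35, edgeR adjusted p = 0.562). TGFB1 therefore had the highest level of the 3 ligand mRNAs, although it too was among the low-abundance genes of the group.

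The receptors moved in different directions. TGFBR1 (chromosome 9, 101867412 to 101916473, plus strand), the type I serine/threonine kinase receptor, was at 71.8, 72.3 and 73.2 CPM in control replicates 1, 2 and 3 and at 79.1, 79.9 and 84.8 CPM in SMIP34 replicates 1, 2 and 3. No treated library was as low as any control. The mean rose to 81.3 ± 3.05 CPM with SMIP34 from 72.4 ± 0.718 CPM in control (SD, n = 3 each), a change of 0.17 ± 0.039 (SE) on the log2 scale with an edgeR adjusted p = 0.00152. Counts of TGFBR1 were fractional in 2 of the 6 libraries, from reads shared with other places or genes.

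TGFBR2 (chromosome 3, 30647994 to 30735633, plus strand), the type II receptor that binds the ligand first, was at 118, 115 and 126 CPM in control replicates 1, 2 and 3 and at 114, 108 and 109 CPM in SMIP34 replicates 1, 2 and 3. The groups did not overlap, but control replicate 2 and SMIP34 replicate 1 were next to each other, at 115.3 and 113.6 CPM. The mean fell to 110 ± 3.22 CPM with SMIP34 from 119 ± 5.36 CPM in control (SD, n = 3 each), a change of -0.12 ± 0.037 (SE) on the log2 scale with an edgeR adjusted p = 0.0124. The call was lost without control replicate 3 (log2 fold change -0.080, adjusted p = 0.0828 in edgeR), without SMIP34 replicate 2 (-0.10, 0.0699) and without SMIP34 replicate 3 (-0.11, 0.0544). Its direction was the same in all 18 alternative fits.

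TGFBR3 (chromosome 1, 92145900 to 92371559, minus strand) encodes betaglycan, a co-receptor without kinase activity that presents ligand to TGFBR2. It was at 16.2, 17.6 and 16.2 CPM in control replicates 1, 2 and 3 and at 20.4, 20.2 and 21.5 CPM in SMIP34 replicates 1, 2 and 3, with no overlap. The mean rose to 20.7 ± 0.735 CPM with SMIP34 from 16.7 ± 0.833 CPM in control (SD, n = 3 each), a change of 0.31 ± 0.070 (SE) on the log2 scale with an edgeR adjusted p = 0.00105. The study's RT-qPCR primers, made for genes selected from these same libraries, include TGFBR3, so that choice is not independent of them.

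Ratios of counts inside each library, where scaling of the libraries plays no part, describe the same changes of these receptors again and are no independent test of them. The log2 ratio of TGFBR2 to TGFBR1 counts was 0.71, 0.67 and 0.78 in control replicates 1, 2 and 3 and 0.52, 0.43 and 0.36 in SMIP34 replicates 1, 2 and 3. Every treated library was lower than every control, with means of 0.72 ± 0.052 and 0.44 ± 0.082 (SD, n = 3 each) and a difference of -0.28. The log2 ratio of TGFBR3 to TGFBR2 was -2.84 ± 0.12 in control and -2.41 ± 0.071 with SMIP34 (SD, n = 3 each), a difference of 0.43, also without overlap. In exact two-sided permutation tests both differences had p = 0.1, the smallest that 3 against 3 libraries can give, and 0.167 after Benjamini-Hochberg adjustment over the 5 ratios compared. With 3 libraries a group, this test could not reach 0.05.

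**Figure D2:**
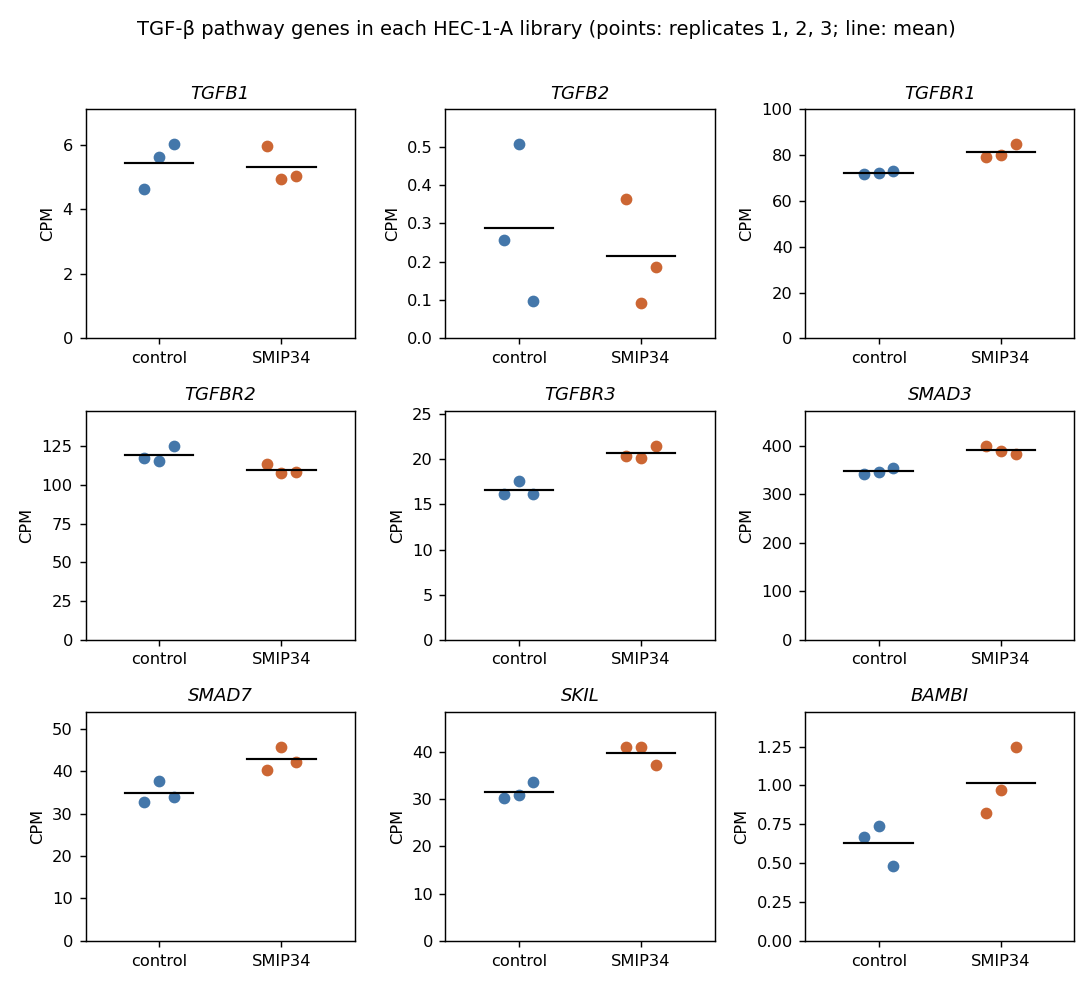
CPM of each gene in the 3 control and 3 SMIP34 libraries, with a line at the mean of each group and each axis starting at 0. SKIL, SMAD7, TGFBR3, SMAD3, TGFBR1 and BAMBI are higher in every SMIP34 library, though BAMBI did not pass the test. TGFBR2 is lower in every SMIP34 library, and TGFB1 and TGFB2 overlap.

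SMAD3 (chromosome 15, 67358195 to 67487533, plus strand) encodes the receptor-activated SMAD that binds DNA and carries the signal. It was at 342, 346 and 355 CPM in control replicates 1, 2 and 3 and at 401, 389 and 384 CPM in SMIP34 replicates 1, 2 and 3. The lowest treated library lay well above the highest control library. The mean rose to 391 ± 8.57 CPM with SMIP34 from 348 ± 6.41 CPM in control (SD, n = 3 each), a change of 0.17 ± 0.027 (SE) on the log2 scale with an edgeR adjusted p = 2.28e-05. With at least 6640 counts in each library, this was the most precisely measured of the 9 genes.

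The feedback inhibitors SKIL and SMAD7 had the largest increases among the genes of the group that passed the test, together with TGFBR3. SKIL (chromosome 3, 170075473 to 170110950, plus strand) encodes SnoN, a nuclear corepressor that binds SMAD proteins on their target genes. It was at 30.3, 30.8 and 33.5 CPM in control replicates 1, 2 and 3 and at 41.01, 41.01 and 37.1 CPM in SMIP34 replicates 1, 2 and 3, again with no overlap. The mean rose to 39.7 ± 2.25 CPM with SMIP34 from 31.5 ± 1.74 CPM in control (SD, n = 3 each), a change of 25.9%, or 0.33 ± 0.056 (SE) on the log2 scale with an edgeR adjusted p = 4.26e-05.

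SMAD7 (chromosome 18, 46446223 to 46477081, minus strand) encodes the inhibitory SMAD that occupies the type I receptor and recruits ubiquitin ligases to it. It was at 32.8, 37.6 and 33.9 CPM in control replicates 1, 2 and 3 and at 40.3, 45.7 and 42.2 CPM in SMIP34 replicates 1, 2 and 3. The groups did not overlap. The mean rose to 42.8 ± 2.74 CPM with SMIP34 from 34.8 ± 2.54 CPM in control (SD, n = 3 each), a change of 22.7%, or 0.30 ± 0.057 (SE) on the log2 scale with an edgeR adjusted p = 0.00022. In each group replicate 2 had the highest SMAD7 level.

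BAMBI (chromosome 10, 28966424 to 28971868, plus strand) encodes a pseudoreceptor that resembles a type I receptor without a kinase domain. It had 13, 16 and 10 counts in control replicates 1, 2 and 3 and 18, 21 and 27 counts in SMIP34 replicates 1, 2 and 3, so that the groups did not overlap. The corresponding levels were 0.670, 0.736 and 0.481 CPM against 0.820, 0.971 and 1.25 CPM. The log2 fold change of 0.68 was the largest of the 8 genes tested, but with a 95% confidence interval from -0.00024 to 1.36 it did not pass the test (edgeR adjusted p = 0.115). It did not pass in any of the 16 alternative fits in which it had an adjusted p-value (0.0857 to 0.345).

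Counting BAMBI, 6 of the 8 genes tested had treated libraries entirely above the controls and 1 (TGFBR2) entirely below, where 22.6% and 21.9% of all genes tested did so. Inside each library, the inhibitors were set against SMAD3, again as a description of the same counts. The log2 ratio of SKIL to SMAD3 counts was -3.46 ± 0.053 in control and -3.30 ± 0.064 with SMIP34 (SD, n = 3 each), with all treated libraries above all controls and a difference of 0.16 (exact two-sided permutation p = 0.1, the smallest possible). The ratio of SMAD7 to SMAD3 had means of -3.32 and -3.19 and overlapped between the groups (difference 0.13, exact p = 0.2). The ratio of SMAD7 to SKIL differed by -0.033 between the groups (exact p = 0.9), less than the SD of 0.14 among controls.

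**Figure D3:**
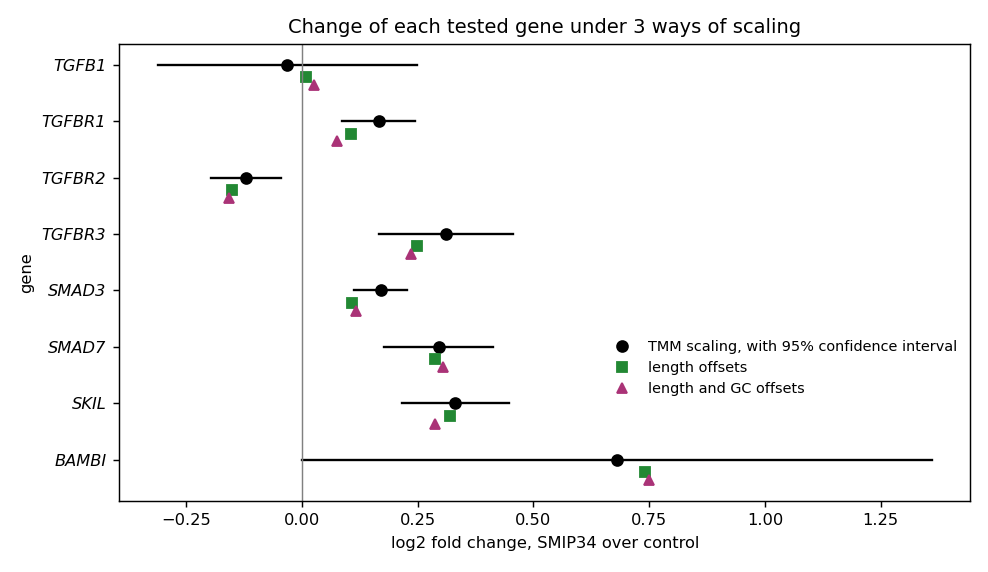
Log2 fold change (SMIP34 over control) of the 8 genes tested, with the 95% confidence interval of edgeR's fit under TMM scaling and, below each, the value with offsets for exon length and for exon length and GC content. TGFBR1 moves from 0.17 to 0.076 with both offsets, SKIL from 0.33 to 0.29 and SMAD7 from 0.30 to 0.30.

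Fold changes in these libraries depended on exon length, and several of the 9 genes are long. When the tested genes were put into 10 classes of like size by exon length, the class medians ran from -0.10 (shortest) to 0.12 (longest). SMAD3 (6623 bases), TGFBR1 (6474 bases) and TGFBR3 (6802 bases) lie in length class 9, where the median was 0.053 and 29.7% of genes were called higher. The 501 genes nearest in length to each had medians of 0.077, 0.068 and 0.072. SKIL (3588 bases) and SMAD7 (3444 bases) stood at 0.33 and 0.30 where genes of like length had medians of 0.0067 and 0.0043. Both lie in length class 6, where 17.5% of genes were called higher. TGFBR2 (4703 bases) stood at -0.12 where genes of like length had a median of 0.050.

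With offsets that take out the trend of every library over exon length, the log2 fold changes of TGFBR1 and SMAD3 were 0.11 and 0.11, and both still passed the test (adjusted p = 0.029 and 0.000519 in edgeR). With offsets for length and GC content together, TGFBR1 no longer passed (0.076, adjusted p = 0.123 in edgeR), while SMAD3 did (0.12, adjusted p = 0.000165). The decrease of TGFBR2 was larger with both offsets (-0.16, adjusted p = 0.000463 in edgeR). SKIL, SMAD7, TGFBR3 and SMAD3 passed the test in all 18 alternative fits. Their log2 fold changes lay between 0.28 and 0.38, 0.24 and 0.36, 0.24 and 0.36, and 0.11 and 0.19, in that order.

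**Figure D4:**
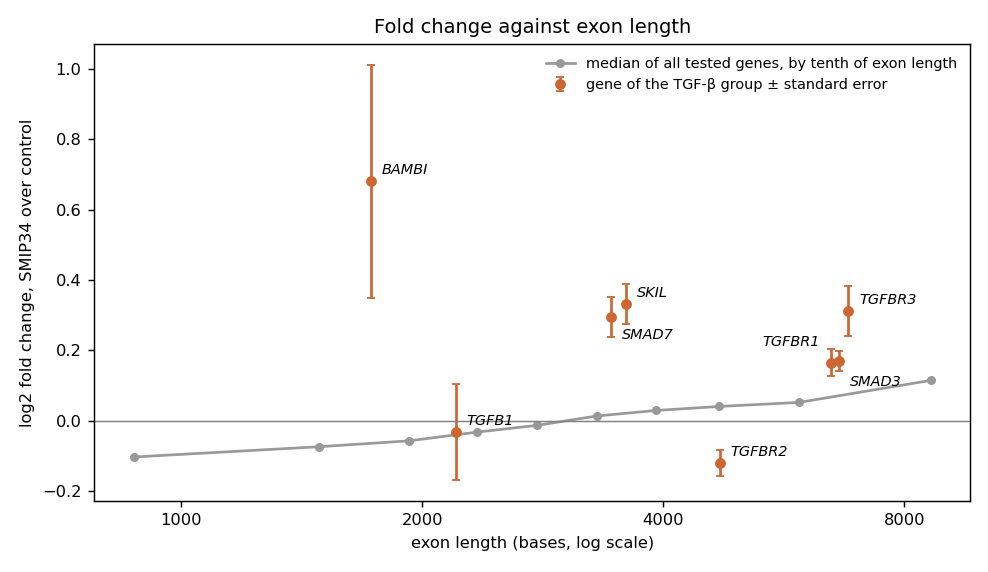
Log2 fold change of the 8 genes tested (points with standard errors) against exon length in bases (log scale), over the median of all genes tested in each of 10 length classes (grey line). The grey line runs from -0.10 to 0.12. SKIL and SMAD7 lie above it by more than their standard errors, TGFBR2 lies below it, and TGFB1 lies near it.

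The 300 bases before the annotated start of each gene were searched on both strands for DNA elements of transcription factors linked to this pathway. These were the SMAD palindrome GTCTAGAC, the SMAD-binding letters CAGACA, the AP-1 site TGANTCA and the cyclic AMP response element (CRE) TGACGTCA, which members of the ATF and CREB families bind and which shares no full match with the AP-1 letters. The only matches among the 9 genes were a CRE before SKIL and CAGACA before TGFB2. They are shown with the bases around them, at chr3:170075438-170075467 and chr1:218518613-218518642 of hg19, plus strand, with the element in capitals and positions -35 to -6 and -63 to -34 from the start.
SKIL: cgaggactcggTGACGTCAgagggctgtgt
TGFB2: ctttgttgaaggCAGACAcgtggttcagag
Of 22675 genes with such a window, 2.05% held the CRE, 15.1% CAGACA, 6.23% the AP-1 site and 0.181% the palindrome. A match is a sequence description only, and its absence says nothing beyond these 300 bases. The windows differed in base composition, with a GC content of 78.0% before SKIL, 81.7% before BAMBI, 79.7% before TGFBR1, 59.3% before SMAD7 and 51.0% before TGFBR2, against a median of 59.0% over all windows.

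The rest of the pathway was described by lists of its other genes. Of 13 further inhibitors, 12 were tested, of which edgeR called 9 higher and 0 lower, beside 17.4% and 17.2% of all genes tested. The count lower was also 0 at an unadjusted p-value under 0.05 and with DESeq2. The median log2 fold change was 0.15. PMEPA1, a target gene whose product sequesters SMADs away from the receptor, rose to 35.6 ± 0.917 CPM with SMIP34 from 29.8 ± 0.795 CPM in control (SD, n = 3 each), with a log2 fold change of 0.26 (adjusted p = 0.000421). SMURF2, the ubiquitin ligase that SMAD7 brings to the receptor, rose to 78.6 ± 0.843 CPM with SMIP34 from 66.6 ± 1.6 CPM in control (SD, n = 3 each), with a log2 fold change of 0.24 (adjusted p = 1.95e-05). The count of inhibitors higher was 6 with DESeq2, 7 with length offsets and 5 without SMIP34 replicate 2. The median of all genes tested was -0.0022, and with length offsets that of the inhibitors was 0.14.

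Among 10 genes of other SMADs, their coactivators and their regulators, 9 were tested. Of these, edgeR called 5 higher (EP300, CREBBP, TRIM33, USP9X and RNF111) and 0 lower, beside 17.4% and 17.2% of all genes tested. The SMADs themselves were not called: SMAD2 had a log2 fold change of -0.058 (adjusted p = 0.276 in edgeR) and SMAD4 of 0.078 (adjusted p = 0.125). The count lower was also 0 at an unadjusted p-value under 0.05 and with DESeq2. The median log2 fold change was 0.17. EP300, a histone acetyltransferase that SMADs recruit, rose to 90.4 ± 4.55 CPM with SMIP34 from 69.8 ± 2.78 CPM in control (SD, n = 3 each), with a log2 fold change of 0.37 (adjusted p = 9.84e-08 in edgeR). TRIM33, which binds activated SMAD2 and SMAD3, rose to 65.8 ± 1.69 CPM with SMIP34 from 53.2 ± 2.48 CPM, a log2 fold change of 0.31 (adjusted p = 3.91e-06 in edgeR). These genes are long, with a median of 8761 exon bases, and the median fell to 0.090 with length offsets, under which 4 were higher and 1 was lower.

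Of 11 further receptors and receptor-associated genes, 9 were tested, and edgeR called 0 higher (1 at an unadjusted p-value under 0.05, 0 with DESeq2) and 3 lower, beside 34.6% of all genes tested that were called in either direction. The median log2 fold change was -0.030, and it was -0.065 with length offsets or the stricter filter, -0.097 with length and GC offsets and -0.012 with library size only. Without a single library it was -0.051 (control replicate 2), -0.012 (control replicate 3), -0.078 (SMIP34 replicate 1) or -0.018 (SMIP34 replicate 2). FKBP1A, which holds the type I receptor in its inactive state, fell to 226 ± 8.48 CPM with SMIP34 from 255 ± 6.48 CPM in control (SD, n = 3 each), with a log2 fold change of -0.18 (adjusted p = 6.87e-05 in edgeR). ACVRL1, a type I receptor best known from endothelium, had 17, 14 and 10 counts in control replicates 1, 2 and 3 and 5, 4 and 9 counts in SMIP34 replicates 1, 2 and 3. Its log2 fold change was -1.24 (adjusted p = 0.0341 in edgeR), and the call was lost without control replicate 1 (adjusted p = 0.148), control replicate 2 (0.07), SMIP34 replicate 1 (0.115) or SMIP34 replicate 2 (0.133). It was also lost without a filter on low counts (adjusted p = 0.0504 in edgeR), and DESeq2 and the stricter filter gave ACVRL1 no adjusted p-value. At most 3 receptors and receptor-associated genes were lower in any fit, and 1 was lower with DESeq2 and without control replicate 1, SMIP34 replicate 1 or SMIP34 replicate 2.

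Of 20 further ligands and genes of ligand activation, 14 were tested. Where edgeR called 34.6% of all 13408 genes in either direction, it called 1 of the 14 higher and 2 lower. The median log2 fold change was -0.046, and it was -0.018 without SMIP34 replicate 2, -0.027 with library size only, -0.028 with limma voom, -0.076 with the stricter filter, -0.085 with length offsets and -0.10 with length and GC offsets. LTBP3, which tethers latent TGF-β to the matrix, fell to 87.1 ± 3.14 CPM with SMIP34 from 95.6 ± 1.37 CPM in control (SD, n = 3 each), with a log2 fold change of -0.13 (adjusted p = 0.00556 in edgeR). The call on LTBP3 was lost without SMIP34 replicate 3 (adjusted p = 0.0554) and with GC offsets (log2 fold change -0.084, adjusted p = 0.0739). The protease gene FURIN, whose product cleaves the TGF-β precursor, had a log2 fold change of 0.085 (adjusted p = 0.0454 in edgeR) and GDF15, a distant member of the ligand family, of -0.079 (adjusted p = 0.036). Both changes were small, and neither passed in DESeq2 (adjusted p = 0.0994 and 0.0586), with length offsets, without a filter or with the replicate block. With 1 library left out, FURIN passed only without control replicate 3 or SMIP34 replicate 3, and GDF15 only without control replicate 1.

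**Figure D5:**
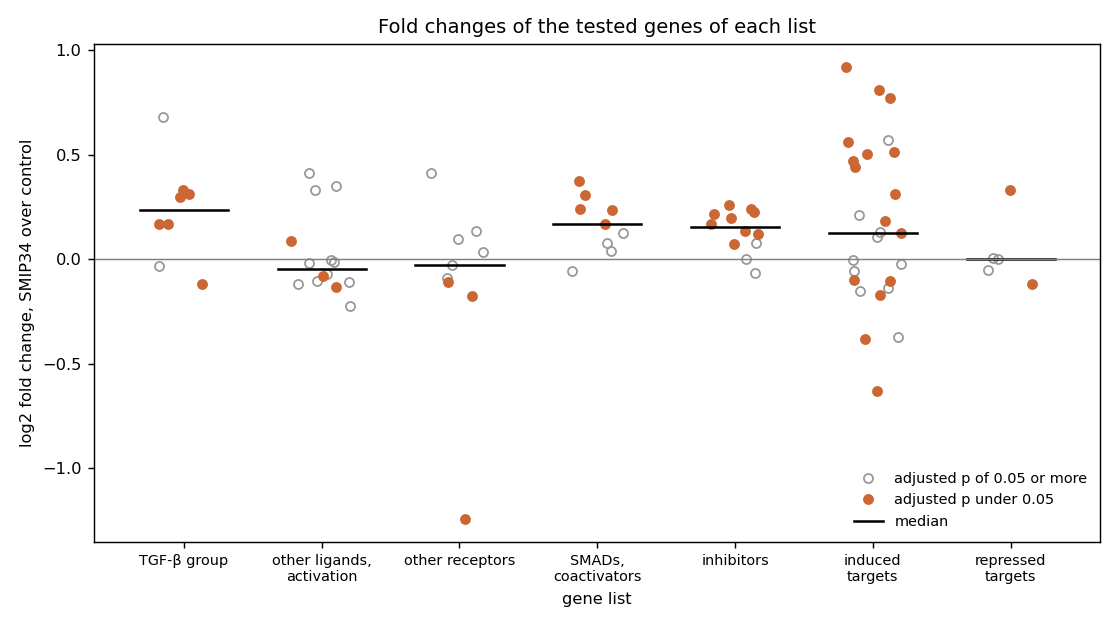
Log2 fold changes (SMIP34 over control) of the tested genes of the TGF-β group and of 6 lists of other pathway genes, with filled points at an adjusted p under 0.05 and a line at each median. All called points among the inhibitors and in the list of SMADs, coactivators and regulators lie above 0. Those of the other receptors lie below 0, and the induced targets spread from -0.63 to 0.92.

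Genes that TGF-β is known to induce in many cell types moved in both directions. Of 30 listed, 26 were tested, and edgeR called 11 higher and 5 lower, beside 17.4% and 17.2% of all genes tested. The share called lower was thus close to that of all genes. The median log2 fold change was 0.13, and it was 0.068 without SMIP34 replicate 2, 0.080 with length offsets and 0.076 with length and GC offsets. With the fold limit of 0.5, 6 were higher and 1 was lower, beside 3.31% of all genes tested in either direction. CDKN1A, the gene of the cell cycle inhibitor p21, was at 6.13, 5.66 and 6.64 CPM in control replicates 1, 2 and 3 and at 11.3, 11.9 and 11.7 CPM in SMIP34 replicates 1, 2 and 3. ANGPTL4, a secreted regulator of lipoprotein lipase, rose to 24.5 ± 2.36 CPM with SMIP34 from 14.0 ± 0.428 CPM in control (SD, n = 3 each), with a log2 fold change of 0.81 (adjusted p = 6.36e-09 in edgeR). PLAUR, the urokinase receptor, had a log2 fold change of 0.56 and KLF10, a transcription factor first described as an early TGF-β response gene, of 0.51. IL11 (0.77, adjusted p = 0.0223 in edgeR) and COL1A1 (0.50, adjusted p = 0.0151) were low, at 1.06 and 2.96 CPM in control cells, and did not pass in DESeq2 (adjusted p = 0.092 and 0.0736). The call on IL11 was lost without control replicate 3 or SMIP34 replicate 1, and that on COL1A1 without control replicate 2 or SMIP34 replicate 3.

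In the opposite direction, TAGLN, which encodes an actin-binding protein of contractile cells, was at 8.86, 9.61 and 9.29 CPM in control replicates 1, 2 and 3 and at 5.38, 7.12 and 5.45 CPM in SMIP34 replicates 1, 2 and 3. Its log2 fold change was -0.63 (adjusted p = 0.000137 in edgeR). TGM2, a transglutaminase that cross-links matrix proteins, fell to 37.0 ± 1.91 CPM with SMIP34 from 48.1 ± 0.995 CPM in control (SD, n = 3 each), with a log2 fold change of -0.38 (adjusted p = 1.09e-06). Several of these targets, CDKN1A and KLF10 among them, are also induced by other stimuli, and the part of TGF-β signalling in their change was not tested.

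Of 5 genes that TGF-β is known to repress in epithelial cells, 1 was higher and 1 lower, beside 17.4% and 17.2% of all genes tested. Their median log2 fold change was 0.00048 and ran from -0.019 to 0.050 over the alternative fits. CDC25A, a phosphatase that drives entry into S phase, rose to 55.3 ± 2.20 CPM with SMIP34 from 43.9 ± 1.56 CPM in control (SD, n = 3 each), with a log2 fold change of 0.33 (adjusted p = 3.81e-06 in edgeR). ID2, which encodes an inhibitor of differentiation, fell to 207 ± 9.15 CPM with SMIP34 from 225 ± 4.27 CPM, a log2 fold change of -0.12 (adjusted p = 0.00499). The call on ID2 was lost without SMIP34 replicate 2 (adjusted p = 0.0723) and with length offsets (adjusted p = 0.222).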

How the data were processed

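RNA-seq libraries, 3 control and 3 SMIP34, came from HEC-1-A cells and were grouped by their labels. The deposited values are estimated counts: per the file headers, the authors ran featureCounts 1.5.0-p1 with strand on hg19 gene exons (UCSC), with a minimum mapping quality of 2, and split a read among all its mapped places and all genes it touched. The submitters' processing notes name HISAT2, and the study's methods name tophat2 and HTSeq. No exon of the 9 genes overlaps an exon of another gene among the 22697 annotated on 1 chromosome and strand.

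Counts were rounded, filtered with filterByExpr (13408 genes left), scaled by TMM and tested by quasi-likelihood in edgeR 4.0.16 (R 4.3.3), adjusting p-values across these genes after Benjamini and Hochberg. The procedure was also run on simulated counts with known changes and the same spread beyond counting noise for every gene. That setting does not measure its error rate in these libraries. The genes and lists were chosen with earlier results of these data known, and the DNA elements after the values were seen. Alternatives were DESeq2 1.42.0, limma 3.58.1 (voom), other scalings and filters, the replicate number as a block, offsets on exon length (loess span 0.3) and leaving out each library. Offsets on GC content were added after the data were seen. List genes named in the text are those past the fold limit of 0.5 and the 2 largest changes in each direction among those called. TGFB3, as the remaining TGF-β isoform, and the markers are named beside this rule. Ratios used counts plus 0.5. Sequence came from GRCh37, the build of the files. Figures were drawn with matplotlib 3.10.9.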

Additional observations from a re-analysis of the deposited data

How the results depend on the processing

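The count of genes of the TGF-β group that were higher was 5 in 17 of the 18 alternative fits and 4 with length and GC offsets, where TGFBR1 had a log2 fold change of 0.076 and did not pass. None passed the fold limit in any fit. Leaving out single libraries gave 0 to 1 lower genes, with TGFBR2 between -0.14 and -0.080. TGFB1, which was never called, had log2 fold changes of 0.0090 with length offsets, 0.020 with GC offsets, 0.027 with both, and -0.13 to 0.049 with a library left out. Without a filter on low counts TGFB2 stood at -0.43 ± 0.65 (SE) on the log2 scale, with an edgeR adjusted p = 0.682. The difference in the ratio of SMAD7 to SKIL ran from -0.094 to 0.041 with a library left out.

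Further ligands higher numbered 0 with DESeq2, upper quartile scaling, length offsets, no filter and the replicate block, and 0 to 1 with a library left out. Further ligands lower numbered 1 with DESeq2, library size only, no filter and the replicate block, 4 with length offsets, 0 with GC offsets, and 0 to 2 with a library left out. GDF15 had a log2 fold change of 0.025 with length and GC offsets. Further receptors lower numbered 1 with DESeq2 and 1 to 2 with a library left out, and those higher 0 to 1. In the list of SMADs, coactivators and regulators, genes lower numbered 1 with length offsets, GC offsets and both. Inhibitors higher numbered 6 with DESeq2, upper quartile scaling and no filter, against 9, and 5 to 7 with a library left out. Induced targets lower numbered 3 with DESeq2, library size only and no filter, and 3 to 5 with a library left out. Repressed targets higher numbered 2 and lower 0 with length offsets and with length and GC offsets, and lower 0 to 1 with a library left out. The cause of these moves was not tested.

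The replicate numbers were not taken as pairs, since deviations of same-numbered libraries had correlations of -0.028, 0.033 and -0.011. With the replicate block, SKIL had a log2 fold change of 0.33, SMAD7 of 0.30 and TGFBR2 of -0.12, no call in the group changed, and the calls over all genes moved from 4645 to 4432. DESeq2 called 3312 genes in all and 281 with the fold limit, against 444 with edgeR, and gave no adjusted p-value for BAMBI, which the stricter filter removed. TGFB2 and BAMBI had under 30 counts in each library, which limits the precision of their values.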

Other observations

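BAMBI had the largest fold change of the TGF-β genes tested, at under 30 counts in each library. Among genes averaging 1 CPM or more, those whose log2 CPM followed that of BAMBI most closely over the 6 libraries were PPARD, a nuclear receptor for fatty acids (Pearson r = 0.994), SLC19A2, a thiamine transporter (0.99), and PAWR, a regulator of apoptosis (0.99). Of 12605 genes compared, 207 had r above 0.9, and the 6 points share 2 groups and one set of library totals, so the values are descriptive. PPARD had a log2 fold change of 0.14, SLC19A2 of 0.20 and PAWR of 0.15.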
